A study of Mus musculus with 6 samples.

Results

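The genes described here encode tenascin C (Tnc), fibronectin (Fn1), 7 integrin subunits that serve as their receptors (Itga5, Itgav, Itga9, Itgb1, Itgb3, Itgb5 and Itgb6) and vinculin (Vcl). They are 10 of the 55450 genes in the deposited tables. They were listed by symbol. A symbol with several rows would have been represented by the row selected on its mean count, but 0 of the 10 symbols had more than 1 row. The list was drawn up with results of the same comparison already known, so the changes below describe these genes and support nothing about the list as a whole. RNA was sequenced from 6 tumours grown under the skin of the right flank of C57BL/6 mice from MTE-Ras cells, a line of mouse tracheal epithelial cancer cells transformed with an oncogenic RAS mutation. The control group is 3 tumours injected with phosphate-buffered saline (PBS) and the treated group 3 tumours injected with PV-10, which contains rose bengal, both into the lesion. All 6 tumours share the cell line, the host strain and the site. The labels give no dose, no age and no time from injection to collection. They also do not say whether each tumour of a group came from its own mouse. The p-values treat the 3 tumours of a group as independent, which the labels do not establish.

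Fibronectin is a large matrix glycoprotein that cells assemble into fibrils, and tenascin C is a matrix protein that is scarce in most healthy adult tissue and abundant in wounds and tumour stroma. Integrins are receptors made of an alpha and a beta chain: Itga5 pairs with Itgb1 in the classical fibronectin receptor, Itgav pairs with Itgb1, Itgb3, Itgb5 or Itgb6, and Itga9 pairs with Itgb1 and binds tenascin C. Vinculin joins ligand-bound integrins to actin through talin. In tumours the matrix genes are made by fibroblasts, endothelium and tumour cells alike, so bulk RNA does not say which cells a transcript came from, and fewer cells of a type cannot be told apart from less RNA per cell.

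The promoters of Tnc and Itga5, the 2 genes that passed the test, and of Vcl, which shared their direction, are shown from 250 bases before to 50 bases after the start site (RefSeq, GRCm38.p6, 5′ to 3′). Capitals mark matches, on either strand, to TATAAA, to the AP-1 site TGANTCA, to the GC box GGGCGG and to the CArG box that serum response factor binds.
Tnc, upstream start site, chr4:64046966-64047265, minus strand: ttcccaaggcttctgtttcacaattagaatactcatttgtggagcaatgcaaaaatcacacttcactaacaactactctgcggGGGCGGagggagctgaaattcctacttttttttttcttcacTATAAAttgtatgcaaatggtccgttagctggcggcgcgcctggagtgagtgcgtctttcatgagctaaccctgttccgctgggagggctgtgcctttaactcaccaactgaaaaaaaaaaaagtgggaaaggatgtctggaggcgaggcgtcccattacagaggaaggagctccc
Itga5, chr15:103366742-103367041, minus strand: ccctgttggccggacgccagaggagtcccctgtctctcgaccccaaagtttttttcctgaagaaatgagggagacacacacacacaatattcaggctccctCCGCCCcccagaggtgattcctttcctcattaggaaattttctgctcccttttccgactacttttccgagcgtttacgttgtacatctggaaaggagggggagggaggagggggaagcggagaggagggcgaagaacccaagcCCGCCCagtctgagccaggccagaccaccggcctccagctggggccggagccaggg
Vcl, chr14:20929148-20929447, plus strand: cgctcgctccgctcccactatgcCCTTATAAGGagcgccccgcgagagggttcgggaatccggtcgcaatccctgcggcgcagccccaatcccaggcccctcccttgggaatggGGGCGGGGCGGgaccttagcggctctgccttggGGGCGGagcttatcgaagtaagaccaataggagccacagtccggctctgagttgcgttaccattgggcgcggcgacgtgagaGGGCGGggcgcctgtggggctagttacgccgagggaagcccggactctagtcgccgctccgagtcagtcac
Tnc has TATAAA from base -126 to base -121 and a GC box. Itga5 has only GC boxes, read on the other strand, 1 of them ending at base -1. Vcl has 4 GC boxes, 2 of which overlap by a base, and the CArG box CCTTATAAGG from base -227 to base -218. RefSeq promoters matched 8 of the 10 genes. Among all 32851 promoters of this length in the table, 13.6% held TATAAA, 7.81% the AP-1 site, 35.7% a GC box and 1.63% a CArG box. The GC box was present in 6 of the genes (Tnc, Itga5, Itgav, Itgb1, Itgb5 and Vcl), the CArG box in Vcl and Itgb6, the AP-1 site in Itga9 and TATAAA in Tnc. The matches in Itga9 and Itgb6 belong to start sites inside these genes (chr9:118711442-118711741 and chr2:60673644-60673943), not at their 5′ ends. The Itgb6 promoter at the 5′ end of the gene had no match. A match describes the letters and is not evidence of a bound factor.

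Counts per tumour summed to between 36730318 and 98717951, the lowest total being that of PV-10 tumour 2, and 3 counts corresponded to 0.029 to 0.0821 CPM (counts scaled to library size by the TMM method). PV-10 tumour 3 was the PV-10 tumour most like the PBS group. Its log2 CPM correlated at 0.939 with the mean of the PBS tumours, against 0.87 and 0.816 for PV-10 tumours 1 and 2. With the mean of the other PV-10 tumours it correlated at 0.873, against 0.918 and 0.874 for tumours 1 and 2. These are descriptions over genes. Log2 change fell with transcript length across the 12898 genes at an average log2 CPM of at least 1 (Pearson correlation -0.43 over genes). A slope on length was also fitted for each tumour, to the deviation of each gene's log2 CPM from its mean over all tumours. This relative slope was negative in the PV-10 tumours (per doubling of length, -0.297, -0.254 and -0.0915 log2 CPM for tumours 1, 2 and 3). It was positive in the PBS tumours (0.129, 0.28 and 0.234). Slopes of such deviations cancel over the tumours, so negative values in some require positive values in others. They compare tumours and do not give the trend of log2 CPM with length within a tumour. The longest transcripts of these 10 genes run from 3282 bases (Itgb5) to 8315 bases (Fn1), and 9 of the 10 exceed the median of 3445 bases. Changes are therefore also given with a joint trend of length and GC content removed, or with that of effective length removed. The joint correction does not separate length from GC content. Of the epithelial markers, Krt8 and Krt18 were at 324 ± 79.4 and 311 ± 71.8 CPM in PBS tumours (mean ± SD, n = 3), whereas Epcam was at 0 to 0.367 CPM and Krt5 at 0 to 0.546 CPM.

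In PV-10 tumours the RNA of tenascin C and of the fibronectin receptor chain Itga5 fell 3.10-fold and 2.94-fold, and fibronectin, vinculin and the remaining receptor chains other than Itgb6 also had negative log2 changes. Among the 10 genes 2 fell, 0 rose and 8 did not pass the test (edgeR quasi-likelihood test, adjusted p under 0.05 over 22056 genes). Over all tested genes 1.92% were called lower and 3.17% higher. An unadjusted p under 0.05 with a negative change was reached by 6 of the 10 and by 14.5% of all tested genes. The median log2 change was -1.02 over the 10 genes and 0.30 over all tested genes. All 10 passed the filter on low counts, 9 of them had a negative log2 change, and 41.5% of all tested genes did. Over the genes at an average log2 CPM of at least 1, which include 9 of the 10, the median was -0.23, the share with a negative change 59.6% and the share called lower 3.28%. In TMM-scaled CPM the 3 PV-10 tumours lay below the 3 PBS tumours for 6 of the 10 genes, against 16.8% of tested genes, and above them for 1, Itgb6, against 22.0%. For Itgb6 the groups overlapped in raw counts, with 20 in PV-10 tumour 3 and 22 in PBS tumour 3, and in TPM.

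**Figure D1:**
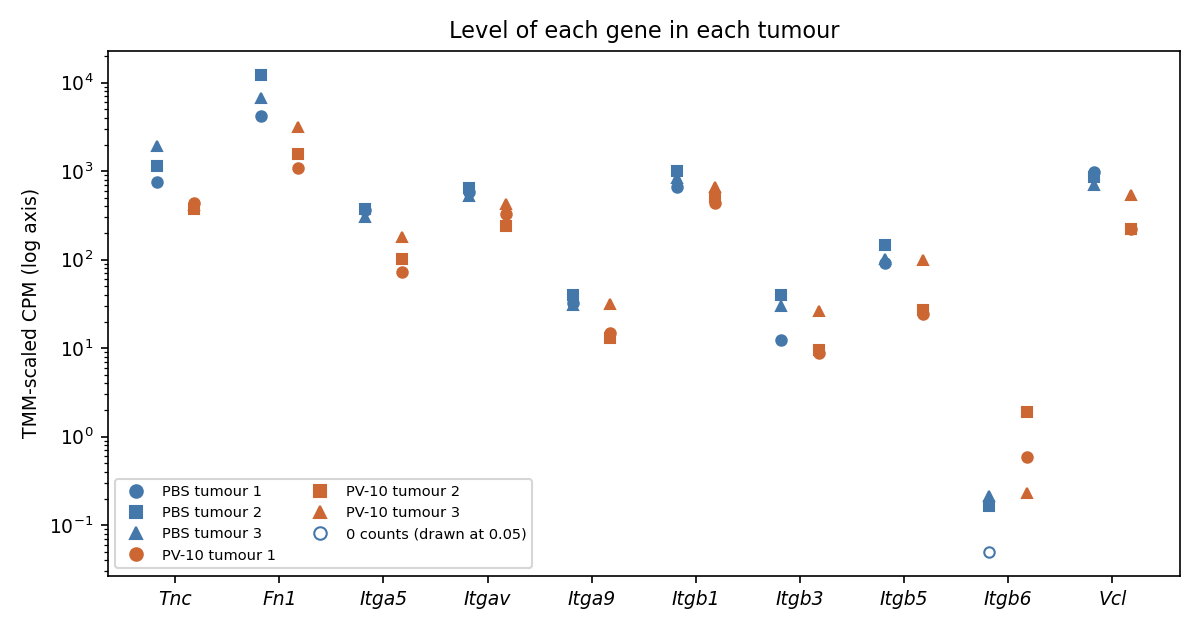
Level of the 10 genes in each tumour, in TMM-scaled CPM on a log axis. Blue symbols are PBS tumours and orange symbols PV-10 tumours, with a shape for each tumour number, and the open symbol is a value of 0 drawn at 0.05. Tnc lies between 375 and 437 CPM in the PV-10 tumours and between 760 and 1903 CPM in the PBS tumours, while Itga9, Itgb3 and Itgb5 in PV-10 tumour 3 (orange triangles) lie within the PBS range.

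Tenascin C (Tnc, ENSMUSG00000028364.15, mm10 chromosome 4, 63959785 to 64047015, minus strand) was at 760, 1152 and 1903 CPM in PBS tumours 1, 2 and 3. In PV-10 tumours 1, 2 and 3 it was at 437, 375 and 418 CPM. The PBS tumours were spread over more than the whole difference between PBS tumour 1 and the PV-10 tumours, while the PV-10 tumours lay close together and below all of them. From a mean of 1272 CPM Tnc fell to 410 ± 31.7 CPM (log2 change -1.63, SE 0.36, edgeR adjusted p = 0.0446, n = 3 per group). PV-10 tumour 3 was as low as the others here, at 32.8% of the PBS mean against 34.4% and 29.5% in tumours 1 and 2. Its log2 change was accordingly -1.64 without PV-10 tumour 3 (edgeR adjusted p = 0.0140). The call was lost without PBS tumour 1, 2 or 3 (edgeR adjusted p = 0.0831, 0.0831 and 0.122) and without PV-10 tumour 1 or 2 (0.107 and 0.217). Removing the trend of length and GC content left -0.56 (edgeR adjusted p = 0.323), and removing that of effective length left -0.70 (edgeR adjusted p = 0.192).

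Fibronectin (Fn1, ENSMUSG00000026193.15, mm10 chromosome 1, 71585520 to 71653200, minus strand) was the most abundant of these genes, at 4235, 12348 and 6794 CPM in PBS tumours 1, 2 and 3. In PV-10 tumours 1, 2 and 3 it was at 1084, 1585 and 3152 CPM. The groups did not overlap, PV-10 tumour 3 being nearest to PBS tumour 1. The means were 7792 ± 4148 and 1940 ± 1079 CPM, a log2 change of -2.01 (SE 0.50). This was the most negative estimate among the 10 genes, and it missed the threshold (edgeR adjusted p = 0.0505). It passed with DESeq2, limma-voom, the replicate block and the other scalings and filters. Removal of the length and GC trend gave -0.96 (edgeR adjusted p = 0.140), and without PBS tumour 2, the highest, the change was -1.53 (edgeR adjusted p = 0.122).

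The proportion of the 2 matrix genes varied widely between tumours. In TPM, a unit scaled for transcript length in which levels of different genes can be compared, Fn1 exceeded Tnc 5.63-, 10.9- and 3.65-fold in PBS tumours 1, 2 and 3. In the PV-10 tumours the ratios were 2.98, 5.12 and 8.86. The ranges overlapped, and the mean ratio was 6.72 ± 3.74 in PBS and 5.65 ± 2.98 in PV-10 tumours. Fn1 and Tnc thus did not keep 1 proportion within either group. The highest Tnc of the PBS group was in tumour 3 and the highest Fn1 in tumour 2.

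Itga5 (ENSMUSG00000000555.8, mm10 chromosome 15, 103344286 to 103366763, minus strand), the alpha chain of the fibronectin receptor, was at 364, 377 and 304 CPM in the PBS tumours. It was at 73.2, 101 and 180 CPM in the PV-10 tumours. The PBS values were close together, and PV-10 tumour 3 lay between them and the other PV-10 tumours at 51.7% of the PBS mean. Itga5 fell from 348 ± 38.7 to 118 ± 55.5 CPM (log2 change -1.56, SE 0.36, edgeR adjusted p = 0.0462). The call was lost without PBS tumour 1, 2 or 3 (edgeR adjusted p = 0.0982, 0.101 and 0.0787) and without PV-10 tumour 1 or 2 (0.119 and 0.219). It was -2.00 without PV-10 tumour 3 (edgeR adjusted p = 0.000708). Removing the length and GC trend left -0.68 (edgeR adjusted p = 0.0966), and removing the effective length trend -1.02 (edgeR adjusted p = 0.0648).

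Itgb1 (mm10 chromosome 8, 128685654 to 128733200, plus strand), the beta chain shared by Itga5, Itga9 and many other alpha chains, was at 667, 993 and 846 CPM in PBS tumours, against 436, 510 and 664 CPM after PV-10. The groups did not overlap, but PV-10 tumour 3 lay just under PBS tumour 1. Its log2 change of -0.64 (SE 0.29, edgeR adjusted p = 0.178) was the nearest to 0 of the 10 genes. In TPM, Itgb1 exceeded Itga5 2.72-, 3.23- and 3.37-fold in the PBS tumours and 6.30-, 6.74- and 4.64-fold in the PV-10 tumours, and these ranges did not overlap. The difference in ratio was not tested, and its size depends on whether length and GC content together or effective length is corrected for. On counts the log2 change of Itgb1 exceeded that of Itga5 by 0.92. The gap was 0.06 without the length and GC trend (Itgb1 at -0.63) and 0.83 without the effective length trend (Itgb1 at -0.19).

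Itgav (mm10 chromosome 2, 83724397 to 83806916, plus strand), the alpha chain of the vitronectin receptors, was at 586, 647 and 518 CPM in PBS tumours, against 327, 243 and 426 CPM after PV-10. The groups did not overlap, and the log2 change was -0.82 (SE 0.29, edgeR adjusted p = 0.0999). Itga9 (chromosome 9, 118606690 to 118901003, plus strand), whose product binds tenascin C, was at 32.1, 39.4 and 31.0 CPM in PBS tumours. In PV-10 tumours it was at 15.0, 13.2 and 31.6 CPM, so that tumour 3 lay inside the PBS range. Its log2 change was -0.77 (SE 0.36, edgeR adjusted p = 0.178), and it turned to 0.07 once the length and GC trend was taken out. Itgav went to -0.43 in that fit and to -0.02 with the effective length trend removed.

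Of the beta chains that pair with Itgav, Itgb1 was the most abundant, followed by Itgb5 and then by the scarcer Itgb3 and Itgb6. Itgb5 (chromosome 16, 33829665 to 33949338, plus strand) was at 92.0, 147 and 102 CPM in PBS tumours, against 24.5, 27.2 and 98.2 CPM after PV-10. PV-10 tumours 1 and 2 were at 21.6% and 23.9% of the PBS mean and tumour 3 at 86.4%, which is within the PBS range. The log2 change of -1.18 (SE 0.52, edgeR adjusted p = 0.161) became -2.13 without PV-10 tumour 3 (edgeR adjusted p = 0.000935). Itgb3 (chromosome 11, 104608000 to 104670476, plus strand), also the platelet and osteoclast chain, was at 12.3, 39.7 and 29.6 CPM in PBS tumours, against 8.81, 9.64 and 26.5 CPM after PV-10. Its PBS values alone spanned most of the range of all 6 tumours, and its log2 change was -0.86 (SE 0.52, edgeR adjusted p = 0.296). Without the length and GC trend Itgb5 was at -0.63 and Itgb3 at -0.12. Itgb6 (chromosome 2, 60598292 to 60722643, minus strand), a chain of epithelia that activates latent TGF-beta, had 0, 16 and 22 counts in PBS and 34, 70 and 20 counts in PV-10 tumours. In CPM these were 0, 0.165 and 0.212 against 0.585, 1.92 and 0.228, all low levels, and the fitted log2 change was 2.83 (SE 1.85, edgeR adjusted p = 0.331).

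Vinculin (Vcl, ENSMUSG00000021823.10, mm10 chromosome 14, 20929398 to 21033676, plus strand) was at 968, 855 and 703 CPM in PBS tumours, against 224, 225 and 537 CPM after PV-10. PV-10 tumours 1 and 2 were almost equal, at 26.6% and 26.7% of the PBS mean, and tumour 3 was at 63.8%. The log2 change was -1.36 (SE 0.39, edgeR adjusted p = 0.0631). Its value was -1.91 without PV-10 tumour 3 (edgeR adjusted p = 0.000664) and -0.86 once the length and GC trend was taken out (edgeR adjusted p = 0.108).

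PV-10 tumour 3 was the highest of the PV-10 tumours for 8 of the 9 genes other than Itgb6, the exception being Tnc, and it reached the lowest PBS tumour or above for 3 (Itga9, Itgb3 and Itgb5). Without it, 9 of the 10 genes were called lower, in a fit that called 16.4% of all tested genes lower and 25.0% higher. With any other tumour left out 0 of the 10 were called, and so were 0% to 0.00361% of all genes as lower. With all 6 tumours, DESeq2's size factors gave 4 of the 10 called lower (4.84% of all tested genes), library size alone 4 (6.62%), no filter 6 (6.70%), a filter of 50 mean counts 4 (7.04%), DESeq2 5 (8.63%), limma-voom 4 (5.35%), the TPM fit with a pseudocount of 0.1 7 (16.2%) and a block for the tumour number 5 (8.24%). Each fit with a length trend removed gave 0 (0%). Skeletal muscle markers, at a summed 42.9, 6.98 and 4.85 CPM in PBS tumours, reached 74.9, 326 and 5.16 CPM after PV-10 and so were highest in the 2 PV-10 tumours in which most of these genes were lowest. Tnnt3 and Tnni2 of this list averaged 1.32 ± 1.92 and 0.473 ± 0.430 CPM with PBS against 34.3 ± 48.0 and 16.1 ± 20.2 CPM after PV-10, with 0 of 8 called. Myh1 and Myh2 of the list had negative log2 changes (-1.20 and -0.49), and Myh1 made up 21.8 CPM of the sum in PBS tumour 1. Their part in the result was not tested.

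**Figure D2:**
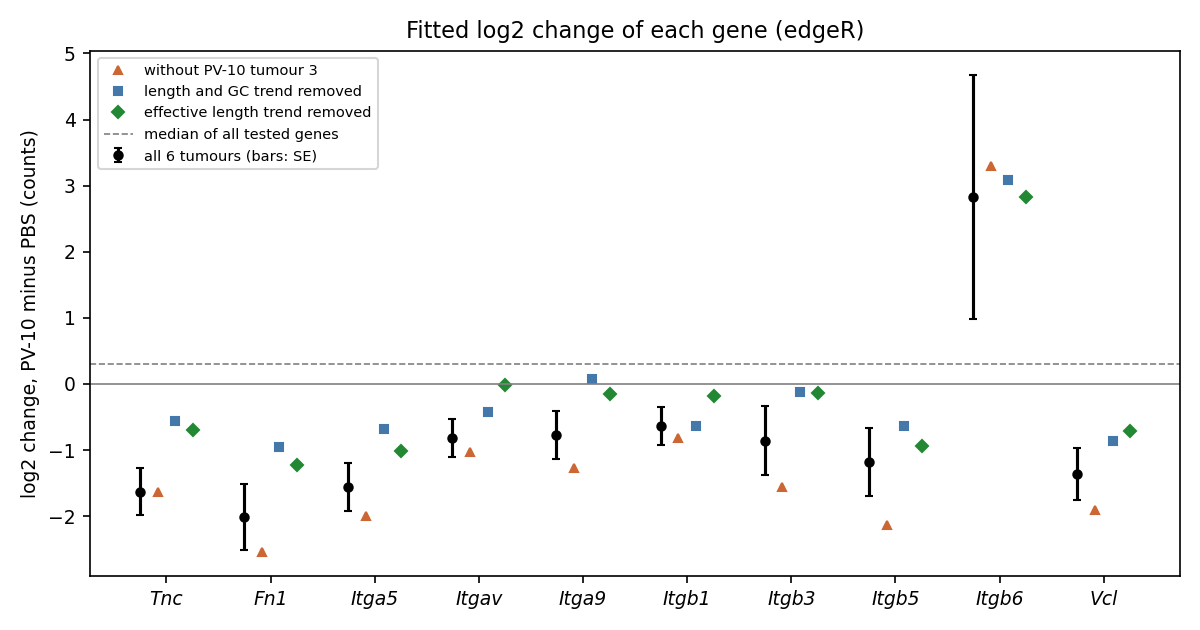
Fitted log2 change (PV-10 minus PBS) of the 10 genes on counts. Black points with SE bars use all 6 tumours, orange triangles leave out PV-10 tumour 3, blue squares remove each library's trend with transcript length and GC content, and green diamonds that with effective length. The dashed line is the median of all tested genes, 0.30. Tnc stays at -1.64 without PV-10 tumour 3 while Itgb5 goes from -1.18 to -2.13. The length corrections drawn here bring each of the 9 negative estimates nearer to 0, that of Itgb1 hardly so for length and GC content.

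Ordered by TPM, the PBS tumours had Fn1 first at 1060 ± 700, followed by Itgb1 at 229 ± 63.0, Tnc at 165 ± 83.0 and Vcl at 139 ± 22.4. Itgav at 87.6 ± 20.8 and Itga5 at 73.1 ± 15.7 came next, then Itgb5 at 35.3 ± 15.4, Itga9 at 6.36 ± 2.74, Itgb3 at 4.30 ± 2.66 and Itgb6 at 0.04 ± 0.0361. Neighbours whose ranges overlapped were Itgb1 and Tnc, Tnc and Vcl, Itgav and Itga5, and Itga9 and Itgb3. In PV-10 tumours the order was Fn1 at 182 ± 138, Itgb1 at 82.0 ± 36.3, Vcl at 34.1 ± 26.1, Tnc at 30.0 ± 7.16, Itgav at 29.1 ± 14.0, Itga5 at 15.1 ± 9.80 and Itgb5 at 9.84 ± 10.1 TPM. Itga9, Itgb3 and Itgb6 followed at 2.43 ± 1.62, 1.43 ± 1.25 and 0.113 ± 0.0929 TPM. In this order every neighbouring pair overlapped except Itgb3 and Itgb6. For the 9 genes other than Itgb6 the log2 change was more negative in TPM than in counts: limma on log2(TPM + 1) gave -2.30 for Tnc, -2.57 for Fn1, -2.35 for Itga5 and -2.22 for Vcl, while Itgb6 went from 2.83 to 0.10. In that fit 7 of the 10 genes were called lower, against 17.2% of all tested genes, and the median of all genes was -0.21 instead of 0.30. The most abundant small RNA, Rny1 or Rn7s1, took 14.8% to 28.6% of all TPM in a tumour, so every other gene's TPM depends on it, but ratios between genes of 1 library do not.

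As a share of the summed TPM of the 3 alpha chains, Itga5 made up 45.3%, 43.1% and 43.4% in PBS tumours and 24.6%, 34.8% and 34.8% in PV-10 tumours. Itgav made up 51.8%, 52.5% and 53.0% against 68.7%, 62.2% and 59.7%. The Itga5 shares of the PV-10 tumours all lay below those of the PBS tumours, and those of Itgav all above, including PV-10 tumour 3. The sum itself was 167 ± 39.2 TPM in PBS and 46.6 ± 25.1 TPM in PV-10 tumours. Among the 4 beta chains Itgb1 took 87.6%, 83.3% and 86.1% in PBS and 92.6%, 92.7% and 83.3% in PV-10 tumours. Itgb5 took 11.6%, 14.8% and 12.1% against 6.09%, 5.99% and 14.7%. In PV-10 tumour 3 the shares of Itgb1 and Itgb5 were thus near those of PBS tumour 2, while its Itga5 and Itgav shares lay outside the PBS range. On counts the log2 change of Itga5 minus that of Itgav was -0.74. It was -0.25 without the length and GC trend. Without the effective length trend the gap was wider than on counts, with Itga5 at -1.02 and Itgav at -0.02, so the size of this shift depends on the correction. These shares come from the same comparison by which the genes became of interest and were not tested.

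**Figure D3:**
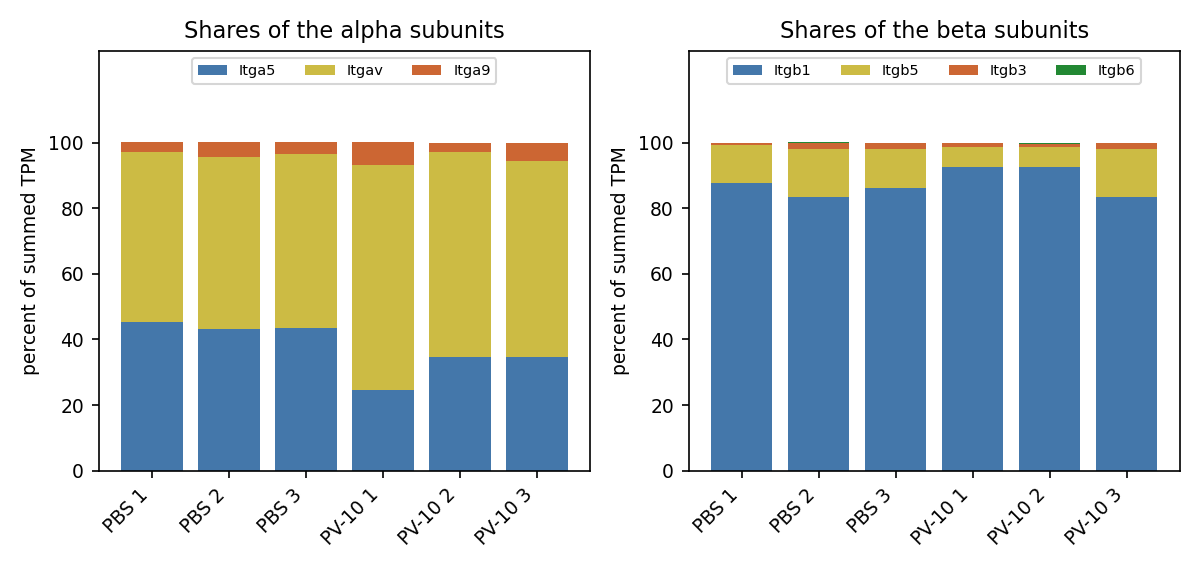
Share of each integrin chain in the summed TPM of the alpha chains (left) and of the beta chains (right), 1 bar per tumour. Itga5 is at 43.1% to 45.3% of the alpha chains in PBS tumours and at 24.6% to 34.8% in PV-10 tumours, and Itgb1 is the main beta chain in all 6, at 83.3% to 92.7%.

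By likeness across the 6 tumours (Pearson correlation of log2 CPM, among 7570 other genes at an average log2 CPM of at least 4), the genes nearest to Tnc were Stxbp4 (0.995), Gm42715 (0.985) and Gja1, which encodes the gap junction protein connexin (0.985). Gja1 was at 143, 149 and 186 CPM in PBS tumours, against 102, 96.2 and 103 CPM after PV-10. Nearest to Itga5 were Nf1, a negative regulator of RAS (0.999), Naa60 (0.999) and Akap13, a kinase anchoring protein (0.999). Akap13 was at 260, 267 and 238 CPM in PBS tumours, against 51.7, 72.0 and 132 CPM after PV-10. The 2 patterns differed in how common they were: 1636 genes had a correlation above 0.95 with Itga5 and 29 with Tnc. All of these points share the 6 libraries, so the coefficients are descriptions.

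Genes acting with these receptors were taken from 3 lists that contain none of the 10. Of 29 tested focal adhesion genes 4 fell (13.8%, against 1.92% of all tested genes and 3.28% of those at an average log2 CPM of at least 1), 0 rose and 25 did not pass the test, with a median log2 change of -1.20 against 0.30 over all tested genes. Talin (Tln1), which activates integrins and recruits vinculin, fell from 535 ± 29.9 to 164 ± 83.0 CPM (log2 change -1.71, SE 0.37, edgeR adjusted p = 0.0443). Lpp, a zyxin relative, fell from 775 ± 55.4 to 248 ± 83.7 CPM, the actin crosslinker filamin A (Flna) from 1402 ± 122 to 562 ± 139 CPM, and the tensin gene Tns3 from 167 ± 24.5 to 64.5 ± 21.6 CPM. Zyxin (Zyx) was at 458 ± 67.7 and 160 ± 102 CPM and alpha-actinin (Actn1) at 566 ± 39.2 and 222 ± 112 CPM, and neither passed (edgeR adjusted p = 0.0618 and 0.0568). For 20 of the 29 genes the groups did not overlap with PV-10 lower, against 16.8% of all tested genes, and for 2 with PV-10 higher, against 22.0%, namely the integrin-linked kinase gene Ilk (0.63) and the adaptor Crk (0.71), both chosen after their values were seen and neither called. Without the length and GC trend the list's median was -0.45 and 0 members were called, with Tln1 at -0.42, Lpp at -1.33, Flna at -0.16 and Tns3 at -0.37. All 4 calls were also lost when any tumour other than PV-10 tumour 3 was left out (edgeR adjusted p = 0.0735 to 0.219).

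Of 18 other integrin subunits tested 1 fell, 0 rose and 17 did not pass, with a median log2 change of -0.60. The share called lower was 5.56%, against 1.92% of all tested genes and 3.28% of those at an average log2 CPM of at least 1. It rests on 1 gene, so no difference is read from it. Itga3, a laminin receptor chain, fell from 247 ± 21.2 to 75.3 ± 45.9 CPM (log2 change -1.71, SE 0.41, edgeR adjusted p = 0.0480). Itga6, a laminin receptor chain and the most abundant of them per length, was at 823 ± 46.9 and 422 ± 138 CPM (log2 change -0.96, edgeR adjusted p = 0.0739). Itgb7, a leukocyte chain, was at 48.3 ± 26.7 and 17.3 ± 13.8 CPM (-1.48, edgeR adjusted p = 0.163). Itgb4, the partner of Itga6 in hemidesmosomes, had a log2 change of -1.84 (edgeR adjusted p = 0.0504) and was chosen after its value was seen. Without the length and GC trend the median was -0.12 and Itga3 was at -0.76 (edgeR adjusted p = 0.0822). Its call was also lost when any tumour other than PV-10 tumour 3 was left out (edgeR adjusted p = 0.0832 to 0.220).

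Of 24 other tenascins, integrin ligands and partners of fibronectin 1 fell, 0 rose and 23 did not pass, with a median log2 change of -0.29. The share called lower was 4.17%, against the same 1.92% and 3.28%, and again rests on 1 gene. The basement membrane proteoglycan perlecan (Hspg2) fell from 1150 ± 314 to 276 ± 100 CPM (log2 change -2.06, SE 0.36, edgeR adjusted p = 0.0443). The ligand genes with the highest mean TPM did not pass the test: osteopontin (Spp1) was at 1169 ± 287 and 1322 ± 337 CPM (0.18, edgeR adjusted p = 0.735) and periostin (Postn) at 337 ± 150 and 331 ± 100 CPM (-0.03, edgeR adjusted p = 0.970). The sign of both depends on the scaling, and Spp1 was at -0.63 on the log2(TPM + 1) scale. The other tenascin genes with such values, chosen after their values were seen, had positive log2 changes with groups that did not overlap, Tnn at 1.67 and Tnxb at 1.62, and neither passed (edgeR adjusted p = 0.0612 and 0.0807). The remaining tenascin gene of the list, Tnr, was at 2.14 with groups that overlapped (edgeR adjusted p = 0.402). Without the length and GC trend the list's median was 0.08 and Hspg2 was at -0.54 (edgeR adjusted p = 0.176). Its call was also lost when any tumour other than PV-10 tumour 3 was left out (edgeR adjusted p = 0.0735 to 0.205).

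**Figure D4:**
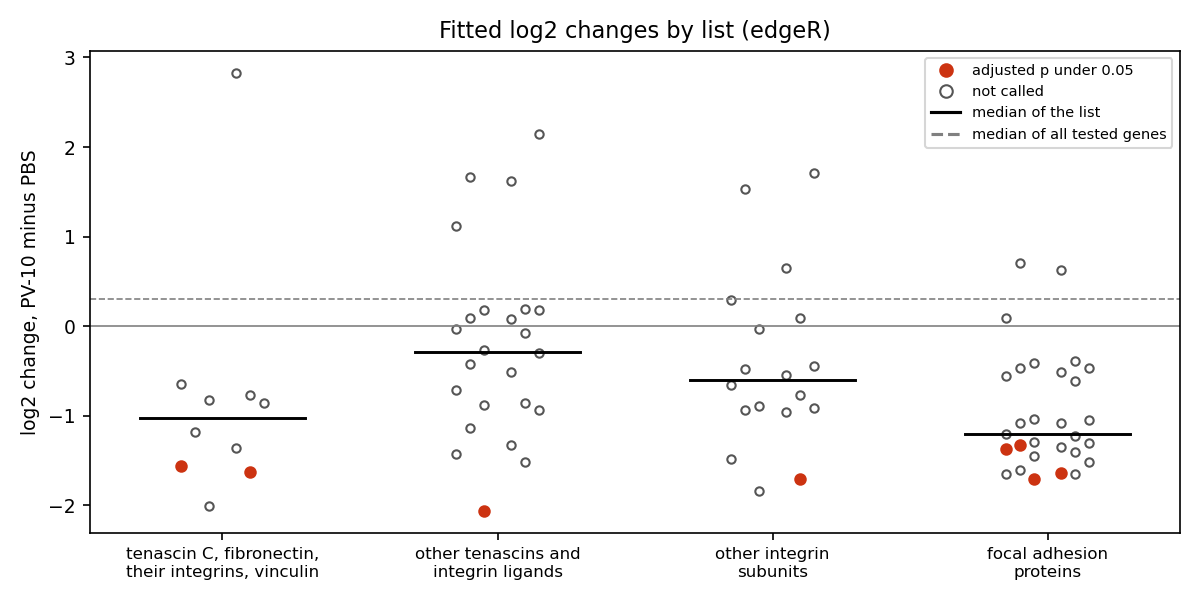
Fitted log2 change (PV-10 minus PBS) of each tested gene, for the 10 genes and for the 3 lists of genes acting with them. Filled red points passed the threshold of the test, open points did not, black bars are list medians (-1.02, -0.29, -0.60 and -1.20 from left to right) and the dashed line is the median of all tested genes, 0.30.

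Cell type markers were read beside these values. Fibroblast and pericyte markers had a median log2 change of 0.36 with 0 of 11 called, and their summed level was 2484 to 5547 CPM in PBS and 3112 to 5906 CPM in PV-10 tumours. Most of this sum came from collagen genes, and the list was split. Pdgfrb was lower after PV-10 without overlap of the groups (-1.45), whereas Lum, Fap and Rgs5 were higher without overlap (1.29, 1.32 and 1.44). These 4 were chosen after their values were seen. The collagen genes Col1a1 and Col3a1 averaged 2304 ± 792 and 890 ± 390 CPM with PBS, and after PV-10 at 1756 ± 435 and 1354 ± 726 CPM. Endothelial markers had a median of -0.57 with 0 of 10 called. They summed to 221 to 494 CPM in PBS, to 161 and 132 CPM in PV-10 tumours 1 and 2 and to 420 CPM in tumour 3. PV-10 tumour 3 was likewise the highest PV-10 tumour for 8 of the 9 genes other than Itgb6. Cdh5 was the largest part of the endothelial sum in every tumour. Of the 10 markers 7 had negative log2 changes, Kdr (-0.81) without overlap of the groups, whereas Tek, Emcn and Cldn5 had positive ones (0.20, 0.24 and 0.16). Cdh5 averaged 173 ± 61.7 CPM in PBS tumours against 88.0 ± 74.5 after PV-10, and Pecam1 74.2 ± 25.1 against 56.1 ± 34.8 CPM. Macrophage markers (median -0.16, 0 of 10 called) summed to 1324 to 2081 CPM in PBS and 1186 to 1596 CPM in PV-10 tumours. C1qb was at 301 ± 74.0 and 390 ± 40.8 CPM and C1qa at 170 ± 47.5 and 153 ± 62.1 CPM. Of the 10 macrophage markers 8 had negative log2 changes, Csf1r (-1.14) and Itgam (-0.66) without overlap of the groups and Cd68 (-0.84) with overlap. Fcgr1 (0.50) and C1qb (0.38) had positive ones. Platelet markers (median 0.46, 0 of 6 tested called) summed to 65.2 to 88.1 and 87.2 to 132 CPM, almost all of it Pf4, while Itga2b, the platelet partner of Itgb3, ranged from 1.23 to 4.09 CPM in PBS tumours and from 2.63 to 3.49 CPM after PV-10. Epithelial markers (median 0.70, 0 of 10 called) summed to 689 to 1088 CPM in PBS and 781 to 965 CPM in PV-10 tumours. The largest positive changes of this list (0.89 to 4.16) were those of Epcam, Krt5, Krt14, Trp63 and Cldn4, none above 3.12 CPM in any tumour. The 2 negative changes were those of Cdh1 (-1.12, groups not overlapping) and Krt8 (-0.71), and Krt18 was at 0.05. Smooth muscle markers (median 0.43, 0 of 5 called) summed to 310 to 820 and 341 to 493 CPM. Within that list Acta2 was at 493 ± 266 and 321 ± 44.9 CPM and Tagln at 13.0 ± 3.29 and 57.4 ± 43.6 CPM. Adipocyte markers (median 1.71, 0 of 3 tested called) summed to at most 6.36 CPM in PBS tumours, 19.1 CPM after PV-10, mostly from Fabp4, with Plin1 at 0 to 0.331 and 0 to 1.26 CPM. The part of these cell types in the changes of the 10 genes was not tested.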

How the data were processed

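RNA of 6 tumours was sequenced as strand-specific libraries (NuGEN Universal RNA-Seq), per the labels' protocols. Upstream, per the labels' protocols, the authors used cutadapt 1.8.1 for adapter removal, STAR 2.7.7a for alignment on mm10, and RSEM 1.3.0 on the Gencode M21 models for counting. The deposited count table holds whole-number counts that are not normalized. The deposited TPM table holds length-scaled values, each column having the same sum. RSEM shares reads among similar genes. The start of each library name in the labels gave each column its tumour.

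Counts were tested with edgeR 4.0.16 (R 4.3.3): default expression filter, TMM scaling, robust quasi-likelihood F test, group as the only term, Benjamini-Hochberg adjustment over 22056 genes, threshold 0.05. The common biological coefficient of variation was 0.777 and the lowest adjusted p 0.0443, close to the threshold. SE was derived from the log2 change and the F statistic. The fit was tested on simulated data. Length trends were splines with 5 degrees of freedom in log2 length and GC content of the longest Gencode M21 transcript, fitted on genes at an average log2 CPM of at least 1, or in effective length (counts over TPM). DESeq2 1.42.0 and limma 3.58.1 were alternatives. The 10 genes and the lists were chosen with earlier results of these data known. From each list of associated genes up to 6 called genes and the 2 with the highest mean TPM are named, and from marker lists those 2. Further genes of these lists are named after their values were seen. For Tnc and Itga5 the 3 most correlated genes are named. Reads carried no stated molecular identifiers, so counting floors cover counting error only.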

Additional observations from a re-analysis of the deposited data

How the results depend on the processing

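Of the 10 genes, 2 were called lower with TMM scaling. With DESeq2's size factors, library size alone, the filter of 50 mean counts or limma-voom 4 were, with DESeq2 or the replicate block 5, with no filter 6, and with limma on log2(TPM + 1) or log2(TPM + 0.1) 7. With the length and GC trend, the effective length trend, or the trend fitted over all tested genes (added after seeing the data) removed 0 were. Leaving out 1 tumour gave 0 to 9, the 9 without PV-10 tumour 3. The number called higher was 0 in all these settings. Removing the length and GC trend reversed the log2 change of Itga9 to 0.07, while the other 9 genes kept their sign in every setting in which they were tested (Itgb6 did not pass the filter of 50). Over the settings Tnc ran from -2.34 to -0.56, Fn1 from -2.58 to -0.96, Itga5 from -2.44 to -0.68 and Vcl from -2.26 to -0.71. Removing the trend fitted over all tested genes shrank the changes less, with Tnc at -1.41, Fn1 at -1.69, Itga5 at -1.42, Itga9 at -0.63 and Itgb3 at -0.73. It made Itgav (-0.95), Itgb1 (-1.14), Itgb5 (-1.28) and Vcl (-1.47) more negative than the main fit. In that fit the median of all tested genes was -0.30 instead of 0.30. The cause of these shifts was not tested.

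Over all genes 423 were called lower and 699 higher. The counts were 1068 and 1469 with DESeq2's size factors, 1461 and 980 with library size, 2627 and 2037 with no filter, 1112 and 1593 with the filter of 50, 2338 and 5875 with DESeq2, 1181 and 835 with limma-voom, 3786 and 251 with log2(TPM + 1), and 3580 and 418 with log2(TPM + 0.1). They were 1818 and 1054 with the replicate block, 0 and 1 with either length trend removed, and 0 and 2 with the trend over all genes removed. Leaving out 1 tumour gave 0 to 4515 lower and 1 to 6884 higher. With all tumours 6627 genes had an unadjusted p under 0.05.

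Of the focal adhesion genes 4 were called lower, of the other integrin subunits 1 and of the ligands 1. In the same order the counts were 13, 2 and 3 with DESeq2's size factors, 15, 4 and 5 with library size, 19, 7 and 6 with no filter, 14, 2 and 4 with the filter of 50, 17, 4 and 6 with DESeq2, and 14, 3 and 4 with limma-voom. They were 22, 8 and 6 with log2(TPM + 1), 22, 7 and 6 with log2(TPM + 0.1), 15, 3 and 4 with the replicate block, and 0, 0 and 0 with any length trend removed. Leaving out 1 tumour gave 0 to 25, 0 to 9 and 0 to 10. Spp1 reversed to -0.63 with either TPM scale, -0.76, -0.02 and -0.68 with the length and GC, effective length and all-gene trends removed, and -0.05 without PBS tumour 1 (-0.05 to 0.39 over the tumours left out). Postn reversed to 0.10 with DESeq2's size factors, 0.14 with the filter of 50, 0.09 with DESeq2, 0.04 with limma-voom, 0.03 with the replicate block, 0.22 with the effective length trend removed, 0.26 without PBS tumour 2 and 0.16 without PV-10 tumour 2 (-0.37 to 0.26 over the tumours left out).

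The labels number tumours 1 to 3 in both groups. Deviations of same-numbered tumours from their group means correlated at -0.0486, 0.0711 and 0.0722, so the numbers are not shown to pair them, and the replicate block is given only as an alternative. It moved Fn1, Vcl and Itgb5 past the threshold (adjusted p = 0.0168, 0.0347 and 0.0470). The estimate for Itgb6 is limited by its low level, at most 70 counts in any tumour. That highest count was in PV-10 tumour 2, the library with the lowest total.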
